A study of Mus musculus with 13 samples.

Results

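Gfap and Aldoc are genes used as markers of astrocytes, the star-shaped glial cells that take up glutamate, buffer potassium and supply neurons with metabolites. Their expression was examined in mice lacking STEP, in the striatum, the part of the basal ganglia that receives cortical input. The members were all probe sets that the authors' deposited list names Gfap or Aldoc. Each gene had 1 such probe set, 1426509_s_at for Gfap and 1424714_at for Aldoc, which makes 2 of the 2832 genes named there. The list holds 4423 of the 45101 probe sets measured. STEP, the product of Ptpn5, is a tyrosine phosphatase of striatal and other forebrain neurons that dephosphorylates glutamate receptor subunits and MAP kinases. The arrays came from 4 mice with a homozygous STEP knockout, 5 mice with a heterozygous STEP knockout and 4 wild-type mice, 13 in all. Per the labels all were naive males on the C57Bl/6J background, and the design text calls the wild-type mice littermates. The sources used here state neither their age nor which part of Ptpn5 was deleted.

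Gfap encodes glial fibrillary acidic protein, the intermediate filament of mature astrocytes, and rises in reactive astrocytes after injury or inflammation. In rodents its level differs between brain regions and is high in white matter and at the ventricle wall. Aldoc encodes aldolase C, the brain form of the glycolytic enzyme that splits fructose 1,6-bisphosphate. In the forebrain it is made mainly by astrocytes, across grey matter.

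The headings of the authors' list and the labels of the arrays disagreed, and the labels were followed. Each column headed HOM1 to HOM4 equalled, within rounding, the array labelled wild type of the same number at all 4423 listed probe sets, and each column headed WT1 to WT4 equalled a homozygous array in the same way. The heterozygous columns carried the right heading. The targeted gene followed the labels of the arrays. Ptpn5 probe set 1425130_a_at had an intensity of 486 ± 105 in homozygous mice (SD, n = 4), 1028 ± 231 in heterozygous mice (SD, n = 5) and 1649 ± 217 in wild-type mice (SD, n = 4). Its log2 difference between homozygous and wild-type mice was -1.75 ± 0.17 (SE, limma adjusted p = 4.47e-06), and the second probe set, 1423544_at, gave -1.49 ± 0.15 (limma adjusted p = 5.24e-06). On the log2 scale, 1027 of the 1027 homozygous folds in the authors' deposited table lay within 0.05 of the difference by array label, and 0 lay that close to the difference by heading. Directions for Gfap and Aldoc would turn for homozygous against wild-type mice if the headings were taken instead.

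The stretches of 250 bases before the annotated starts of Gfap and Aldoc are shown because the genes of factors that act on Gfap transcription, described further on, include members of the JAK-STAT, NFI and AP-1 families. They were read from RefSeq, build GRCm38.p6, at chr11:102897201-102897450 on the minus strand for Gfap and chr11:78322823-78323072 on the plus strand for Aldoc. The letters searched on both strands were TTCNNNGAA for STAT factors, TTGGC or GCCAA for NFI factors, TGANTCA for AP-1 and GGGCGG or CCGCCC for the GC box. Capitals mark matches. RefSeq gives Aldoc 2 starts, and the stretch shown lies before the first, where the annotated gene begins. The other was not searched.
Gfap: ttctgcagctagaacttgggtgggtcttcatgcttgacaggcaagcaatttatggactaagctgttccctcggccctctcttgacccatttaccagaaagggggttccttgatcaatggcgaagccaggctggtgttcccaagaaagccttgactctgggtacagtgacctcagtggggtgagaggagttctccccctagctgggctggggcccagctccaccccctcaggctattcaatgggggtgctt
Aldoc: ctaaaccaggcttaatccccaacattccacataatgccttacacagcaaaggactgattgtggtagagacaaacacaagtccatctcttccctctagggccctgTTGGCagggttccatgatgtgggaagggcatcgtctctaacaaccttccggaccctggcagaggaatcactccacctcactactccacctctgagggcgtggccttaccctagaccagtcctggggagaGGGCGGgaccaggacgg

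The Gfap stretch held 0 matches to these 4 motifs. Sequence outside the stretch, farther upstream included, was not searched, so sites there were not judged. The Aldoc stretch held 1 NFI match, starting 146 bases before the annotated start, and 1 GC box, starting 17 bases before it. These matches did not overlap. Of 32851 RefSeq stretches of the same length, 41.5% held the NFI letters, 32.7% the GC box, 7.02% the STAT letters and 6.75% the AP-1 letters. The base composition of both stretches was close, 55.6% G and C for Gfap and 55.2% for Aldoc.

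Gfap tended to low values in homozygous mice, but the difference did not pass the array-wide test. Its intensity was 366, 393, 602 and 769 in homozygous mice 1 to 4. In heterozygous mice 1 to 5 it was 643, 914, 552, 734 and 448. In wild-type mice 1 to 4 it was 753, 606, 697 and 810. Homozygous mice 1, 2 and 3 thus lay below every wild-type mouse, homozygous mouse 4 lay inside the wild-type range, and the groups overlapped. The heterozygous mice spread over both other groups, and heterozygous mouse 2 had the highest value of all 13. In whole tissue, fewer astrocytes and less Gfap RNA per astrocyte cannot be told apart.

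Mean Gfap intensity was lowest in homozygous mice (533 ± 189, SD, n = 4), next in heterozygous mice (658 ± 178, SD, n = 5) and highest in wild-type mice (717 ± 86.9, SD, n = 4). The log2 difference between homozygous and wild-type mice was -0.47 ± 0.20 (SE), a ratio of 0.72, with an unadjusted limma p of 0.0274 and an adjusted p of 0.909. Of all 45101 probe sets, 4 passed at an adjusted p under 0.05 (0.00887%), and 0 of the 2 members were among them. At an unadjusted p under 0.05 there were 1363 probe sets (3.02%), of which 1269 were higher and 94 lower in homozygous mice (0.208%). Gfap was among the 94, and 0.137% of all probe sets had a more negative difference on this scale. The authors listed Gfap through this comparison, at a raw p under 0.05 in these same mice. Its place is therefore no independent evidence. The split depended on the scaling: with each array centred on its median, 846 probe sets were higher (1.88%) and 922 lower (2.04%). Between heterozygous and wild-type mice Gfap differed by -0.15 ± 0.19 (SE, limma adjusted p = 0.731), and between homozygous and heterozygous mice by -0.32 ± 0.19 (SE, limma adjusted p = 1). None of these neighbours in the order of means differed beyond the spread between mice by the adjusted test.

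The size of the Gfap difference depended on single arrays. Leaving out homozygous mouse 4 gave -0.67 log2 against wild type (limma adjusted p = 0.913), and leaving out homozygous mouse 1 gave -0.32 (limma adjusted p = 0.324). Gfap was also more variable within genotypes than most probe sets. Its pooled SD within groups was 0.37 log2, above that of 97.3% of the 5801 probe sets within 0.5 log2 of its mean, whose median SD was 0.19. In the authors' deposited table Gfap is listed through the homozygous comparison alone, with a fold of -1.40 and a raw p of 0.0380.

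Aldoc tended to high values in heterozygous mice, and this difference did not pass the array-wide test either. Its intensity was 468, 575, 493 and 774 in homozygous mice 1 to 4. In heterozygous mice 1 to 5 it was 741, 535, 685, 540 and 823. In wild-type mice 1 to 4 it was 461, 477, 535 and 487. The wild-type mice lay close together. Heterozygous mice 1, 3 and 5 and homozygous mouse 4 stood well above them, while heterozygous mouse 2 (534.8) and wild-type mouse 3 (535.1) had nearly the same value, so that the groups touched.

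The order of mean Aldoc intensity was not that of Gfap. It was 578 ± 139 in homozygous mice (SD, n = 4), 665 ± 126 in heterozygous mice (SD, n = 5) and 490 ± 31.8 in wild-type mice (SD, n = 4). Between heterozygous and wild-type mice the log2 difference was 0.41 ± 0.15 (SE), a ratio of 1.33, with an unadjusted limma p of 0.0104 and an adjusted p of 0.381. The array-wide count in this comparison was 1 probe set (0.00222%), which was not a member. At an unadjusted p under 0.05, 4953 probe sets differed (11%), and 4884 of these were higher in heterozygous mice (10.8%). Aldoc was among these 4884, a place to be read against that share. Its listing already required a raw p under 0.05 in these mice, so the place is no independent evidence. With each array centred on its median, 2604 probe sets were higher (5.77%) and 1865 lower (4.14%). Between homozygous and wild-type mice Aldoc differed by 0.20 ± 0.16 (SE, limma adjusted p = 0.909), and by 0.058 without homozygous mouse 4. Between homozygous and heterozygous mice it differed by -0.20 ± 0.15 (SE, limma adjusted p = 1), and in that comparison 3 probe sets passed (0.00665%), 0 of them members. At an unadjusted p under 0.05 there were 1201 probe sets (2.66%), again with 0 members. The groups did not overlap at 1.37% of probe sets for homozygous against wild-type mice, 6.6% for heterozygous against wild-type mice and 0.474% for homozygous against heterozygous mice, and 0 of the 2 members were among them in each. The authors' deposited table lists Aldoc through the heterozygous comparison alone, with a fold of 1.34 and a raw p of 0.0144.

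**Figure D1:**
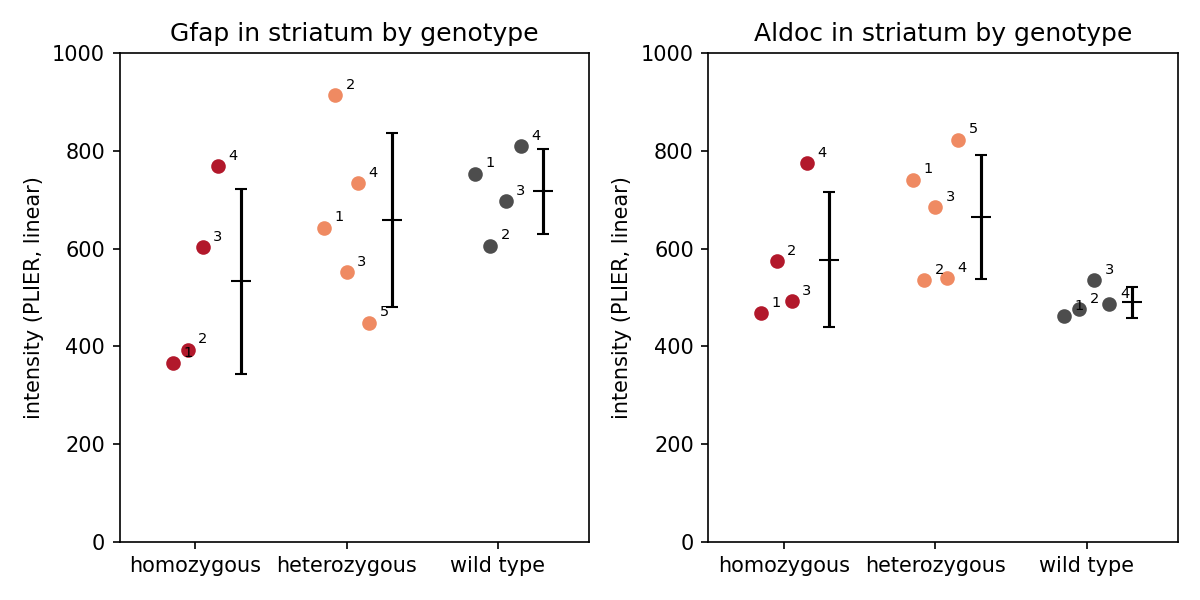
Intensity (PLIER, linear scale) of the Gfap and Aldoc probe sets in each mouse by genotype, numbered by replicate, with the mean and SD beside each group. Gfap reaches down to 366 in homozygous mice, and Aldoc lies between 461 and 535 in wild-type mice but reaches 823 in heterozygous mice.

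The arrays differed in brightness, which bears on both genes. The median intensity of all probe sets was 143 to 201 in homozygous mice, 160 to 198 in heterozygous mice and 154 to 168 in wild-type mice. Over all probe sets the median log2 difference was 0.09 between homozygous and wild-type mice, 0.12 between heterozygous and wild-type mice and -0.03 between homozygous and heterozygous mice. With each array centred on its own median, Aldoc differed by 0.30 between heterozygous and wild-type mice (limma adjusted p = 0.503). Gfap then differed by -0.57 between homozygous and wild-type mice (limma adjusted p = 0.999) and by -0.27 between heterozygous and wild-type mice. Quantile normalization moved the values further, to 0.23 for Aldoc and -0.34 for Gfap between heterozygous and wild-type mice. Between homozygous and wild-type mice it gave 0.087 for Aldoc and -0.60 for Gfap. By both scalings, the Gfap differences from wild type were thus larger in size and those of Aldoc smaller. Array weights, which do not scale brightness, brought both genes closer to wild type. They gave 0.045 for Aldoc and -0.29 for Gfap in homozygous mice, and 0.27 and 0.032 in heterozygous mice.

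**Figure D2:**
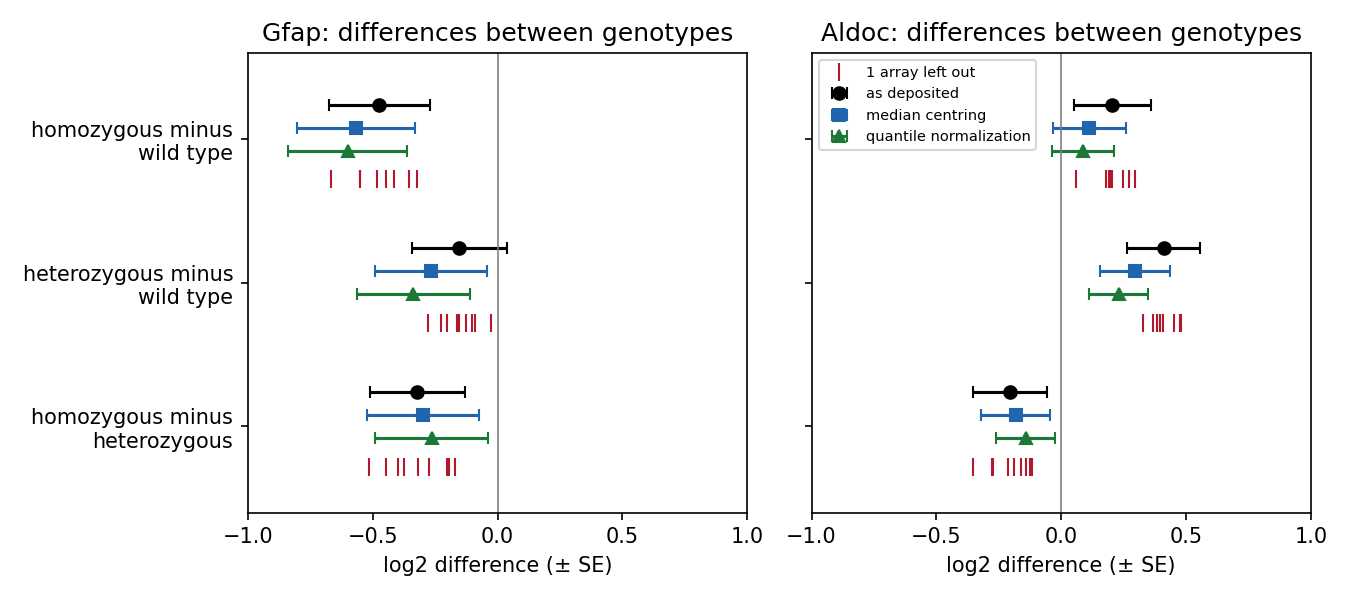
Log2 differences (± SE) of Gfap and Aldoc in the 3 comparisons, with the deposited values, with median centring and with quantile normalization, and with 1 array left out at a time (red ticks). All Gfap estimates lie below 0, and all Aldoc estimates against wild type lie above 0, with adjusted p above 0.05 throughout.

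Gfap and Aldoc showed no detectable relation across mice. Over the 13 arrays Pearson's r was -0.12 (permutation p = 0.697, adjusted p = 0.697 over 3 relations) and Spearman's rho was -0.12 (permutation p = 0.696, adjusted p = 0.864). Without homozygous mice 1 and 2, the arrays farthest from the Gfap median, r was -0.47 (permutation p = 0.145). With group means subtracted it was -0.051 (permutation p = 0.868). Groups of 4 and 5 mice are too small for a value within each genotype. Within an array, log2 Gfap minus log2 Aldoc was -0.34, -0.53, 0.28 and -0.01 in homozygous mice 1 to 4 and 0.69, 0.34, 0.37 and 0.72 in wild-type mice 1 to 4. Every homozygous mouse was thus below every wild-type mouse on this difference, narrowly (0.28 against 0.34), a description for which no test was made. The authors listed both genes for differences in these same mice, so the separation is no independent evidence. The share of other gene pairs that separate in this way was not computed. In heterozygous mice 1 to 5 it was -0.20, 0.76, -0.30, 0.43 and -0.85, wider than in both other groups.

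Probe sets with a pattern close to that of Gfap were few. Among the 27066 other probe sets with a mean log2 of at least 7, 8 had a Pearson's r above 0.9 with Gfap over the 13 arrays, against 684 with Aldoc. The arrays shared genotype and overall brightness, so these values are descriptions. The 5 named genes most like Gfap were Klk6 (r = 0.85), Fah (0.74), Pdlim1 (0.71), Folh1 (0.68) and Spp1 (0.63). By r they ranked only 51, 259, 303, 358 and 466 among the probe sets compared. They carry a name because the authors listed them for differences in these same mice, so their directions are no independent evidence. Klk6 is a secreted serine protease abundant in oligodendrocytes, Fah completes the breakdown of tyrosine, and Folh1 cleaves the neuropeptide N-acetylaspartylglutamate. Klk6 had 201, 283, 327 and 349 in homozygous mice 1 to 4 and 471, 389, 339 and 493 in wild-type mice 1 to 4, a log2 difference of -0.53 (limma adjusted p = 0.909). The homozygous values thus followed the order of Gfap, with mouse 1 lowest and mouse 4 highest, above wild-type mouse 3. Heterozygous mice 1 to 5 had 314, 481, 341, 482 and 179, the last being the lowest of the 13 arrays. Klk6 is named for its correlation with Gfap, so a shared order is built in. Spp1, the secreted phosphoprotein osteopontin, had the largest difference of the 5, -0.76 between homozygous and wild-type mice (limma adjusted p = 0.909). Of probe sets without a name here, 1426508_at (r = 0.98) and 1416371_at (r = 0.92) were closest to Gfap. They differed by -0.35 and -0.32 between homozygous and wild-type mice, smaller in size than the -0.47 of the Gfap probe set. The number of 1426508_at is next to that of the Gfap probe set, 1426509_s_at. Whether 1426508_at also measures Gfap was not tested, because the sources used here do not name its gene. Its r may therefore compare Gfap with itself, and it is among the 8 probe sets counted above.

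The named genes most like Aldoc were Tmem160 (r = 0.98), Mylk (0.97), Kctd6 (0.97), Anxa7 (0.97) and Smad1 (0.97). Mylk encodes myosin light chain kinase, Anxa7 a calcium-dependent membrane-binding annexin, and Smad1 a transducer of BMP signals. Their log2 differences between heterozygous and wild-type mice ran from 0.28 for Anxa7 to 0.42 for Mylk, and none passed (limma adjusted p from 0.393 to 0.430).

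Other astrocyte genes were rarely on the authors' list, the source of all gene names here. Of 34 astrocyte markers, 3 were named, Gfap, Aldoc and Hapln1, which encodes a link protein of the extracellular matrix. The other 31, among them the water channel gene Aqp4 and the glutamate transporter genes Slc1a2 and Slc1a3, were therefore not analysed here. The lists were drawn up with earlier results on these data known. Listing required a deposited raw p under 0.05 in these same mice, and no listed fold was smaller than 1.20 in size. Counts and medians of list members are therefore no independent evidence of direction or size. The first Hapln1 probe set, 1421633_a_at, had 99.1 ± 16.5 in homozygous mice (SD, n = 4), 106 ± 7.61 in heterozygous mice (SD, n = 5) and 80.0 ± 8.09 in wild-type mice (SD, n = 4). Over the 6 astrocyte probe sets, 0 passed the adjusted test in any comparison. Against wild type, 5 of 6 had positive differences in homozygous mice and also in heterozygous mice, with Gfap the exception each time. The medians were 0.15 and 0.32 log2. All of the 6 other than those of Gfap and Aldoc belong to Hapln1, so the count and the medians mostly describe that gene. After median centring the Hapln1 probe sets differed by 0.16, 0.0031, 0.14 and 0.0077 between homozygous and wild-type mice.

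Of 24 genes tied to reactive astrocytes, 6 were named, with 7 probe sets, and 0 passed. Nes, which encodes the intermediate filament nestin, differed by 0.22 between homozygous and wild-type mice, and S100a10, a calcium-binding protein of the S100 family, by 0.22 and 0.14 at its 2 probe sets. Lcn2, which encodes the secreted lipocalin 2 and is named after its values were seen, was high in a few arrays. It had 12.5, 17.1, 12.3 and 2438 in homozygous mice 1 to 4, 15.3, 18.4, 16.1, 14.3 and 10.4 in heterozygous mice 1 to 5, and 14.5, 2443, 600 and 11.0 in wild-type mice 1 to 4. The 3 high arrays were homozygous mouse 4 and wild-type mice 2 and 3. Homozygous mouse 4 had the highest Gfap of its group, while wild-type mouse 2 had the lowest of its own. Lcn2 did not pass in any comparison.

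Genes of the Gfap filament class and its partners gave 6 named of 13, with 8 probe sets. Gfap was the 1 with a negative difference between homozygous and wild-type mice on the deposited scale, whereas after median centring an Lmna (-0.038) and the Synm (-0.092) probe set were negative as well. These genes, named after their values were seen, encode lamin A/C and the filament protein synemin. On the deposited scale the median was 0.13 log2 against 0.09 over all probe sets. Plec, which encodes the cytolinker plectin, differed by 0.22 and 0.16 in that comparison. For heterozygous against wild-type mice, 6 of the 8 had an unadjusted p under 0.05 and were higher (10.8% of all probe sets), and 2 after median centring (5.77% of all), with 0 past the adjusted test. Most listed probe sets (3874 of 4423) were listed through that comparison, so the count adds nothing beyond the listing.

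Glycolytic genes, the pathway of Aldoc, gave 5 named of 22, with 7 probe sets, all with positive differences against wild type. Pfkfb3, which makes the activator of phosphofructokinase, had 480 ± 111 in homozygous mice (SD, n = 4), 433 ± 54.9 in heterozygous mice (SD, n = 5) and 356 ± 43.9 in wild-type mice (SD, n = 4). The phosphofructokinase genes Pfkl (0.36 at each of its 2 probe sets) and Pfkp (0.44) and the hexokinase gene Hk1 (0.42 and 0.36, named after its values were seen) differed between heterozygous and wild-type mice by about as much as Aldoc (0.41). Of the 7, 6 were higher at an unadjusted p under 0.05 in that comparison (10.8% of all probe sets) and 5 after median centring (5.77% of all), with 0 past the adjusted test. Their median was 0.36 log2, against 0.12 over all probe sets, and every member was listed by the authors for a difference in these mice. No fold on that list was smaller than 1.20 in size. The median and the closeness in size to Aldoc are therefore no independent evidence.

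Factors known to act on Gfap transcription gave 9 named of 25, with 20 probe sets. Besides Ptpn5, kept on the list as the targeted gene, 0 passed. Fos and Jun, which form AP-1, had positive differences between homozygous and wild-type mice, 1.28 ± 0.35 (SE) for Fos and 0.30 and 0.28 for Jun (limma adjusted p = 0.909 for each). The nuclear factor I genes Nfia and Nfib, activators of astrocyte genes are named after their values were seen and had similar means in homozygous and wild-type mice. Nfib probe set 1434102_at had 282 ± 10.9 in homozygous mice (SD, n = 4), 419 ± 64.8 in heterozygous mice (SD, n = 5) and 298 ± 45.4 in wild-type mice (SD, n = 4). The median over the 20 probe sets was 0.06 between homozygous and wild-type mice, turning to -0.03 after median centring, and 0.37 between heterozygous and wild-type mice. Of the 20, 18 were higher at an unadjusted p under 0.05 in the heterozygous comparison (10.8% of all probe sets), and 11 after median centring (5.77% of all). Of the 4423 listed probe sets, 3874 were listed through that comparison, so the count says nothing of these genes beyond their listing.

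**Figure D3:**
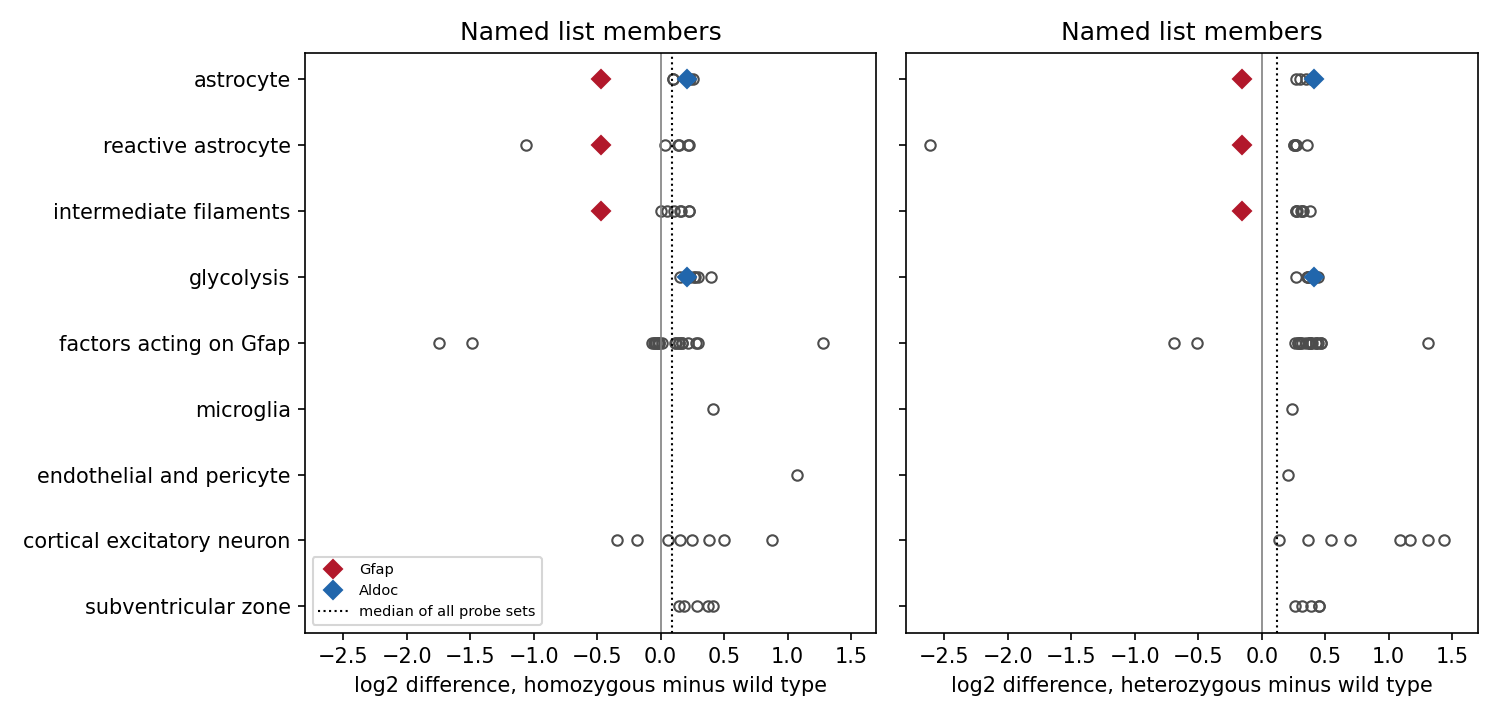
Log2 differences of every named probe set on the gene lists between homozygous and wild-type mice (left) and heterozygous and wild-type mice (right), with Gfap and Aldoc as filled diamonds and the median of all probe sets as a dotted line. Gfap lies at -0.47 and -0.15, Aldoc at 0.20 and 0.41, and most other members lie above 0.

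Genes used as markers of cortical excitatory neurons, cells that lie next to the striatum and are not part of it, had a high summed intensity in several arrays where Aldoc was high. Of 12 markers 7 were named, with 8 probe sets. Their summed intensity ran from 3432 to 7432 in homozygous mice, from 5746 to 12534 in heterozygous mice and from 2972 to 5913 in wild-type mice. The linear sum weighs bright probe sets most. In wild-type mice Camk2n1 and Nrn1 had means of 1697.5 and 1141, where the mean sum was 4663. Whether the sum measures cortical tissue was not tested, nor whether striatal cells also express these genes, Camk2n1 among them. The heterozygous array with the most Aldoc, mouse 5, had the highest sum, and heterozygous mice 1 and 3 had 9360 and 7536. Heterozygous mouse 2, with the lowest Aldoc of its group, had 7697, above mouse 3. Over the 13 arrays the log2 sum and log2 Aldoc had a Pearson's r of 0.77 and a Spearman's rho of 0.60. These values are a description, and permutation p-values for them were computed but are not read as evidence. Aldoc and most of the markers have a name here because the authors listed them for a difference between heterozygous and wild-type mice. The relation was also chosen after seeing the data. Without heterozygous mouse 5 and homozygous mouse 4, the arrays farthest from the Aldoc median, r was 0.66 and rho 0.42. With group means subtracted, r was 0.64 and rho 0.52. None of the 8 probe sets was at 0 in any array, and the lowest single value was 45.8, for Emx1 in a wild-type mouse. Both measures were taken from the same arrays and share their brightness. With each array centred on its median r was 0.81. For Gfap and the log2 sum r was -0.15 and rho -0.055. The part of the cortical markers in the Aldoc difference was not tested.

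**Figure D4:**
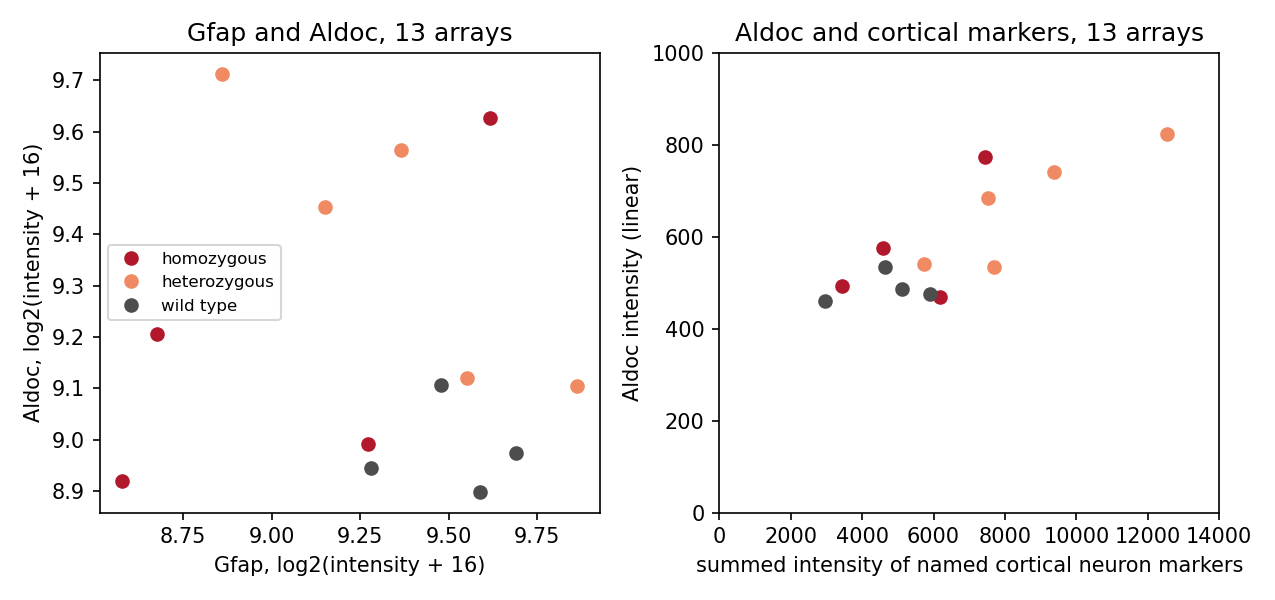
Left, Aldoc against Gfap as log2(intensity + 16) in each of the 13 arrays. Right, Aldoc intensity against the summed intensity of the 8 named cortical marker probe sets, both linear. Gfap and Aldoc show no common trend (r = -0.12), whereas the heterozygous arrays with the most Aldoc also have high cortical sums, up to 12534.

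Among the cortical markers, Tshz2, a zinc finger gene, differed by 0.88 and 0.50 between homozygous and wild-type mice, Rprm by 0.38 and Camk2n1, an inhibitor of CaM kinase II, by 0.15. The cortical transcription factor genes Tbr1 (-0.34) and Emx1 (-0.19), named after their values were seen, went the other way, so that 6 of the 8 probe sets were higher and 2 lower. Between heterozygous and wild-type mice 7 of the 8 probe sets were higher at an unadjusted p under 0.05 (10.8% of all probe sets) and 3 after median centring (5.77% of all), 0 passed, and the median was 0.89 log2. A name here required listing by the authors, mostly through this comparison, so the count adds nothing beyond the listing. Slc17a7, the vesicular glutamate transporter of cortical neurons, is named after its values were seen and had 604 ± 402 in homozygous mice (SD, n = 4), 1389 ± 515 in heterozygous mice (SD, n = 5) and 539 ± 277 in wild-type mice (SD, n = 4), with a difference of 0.059 between homozygous and wild-type mice that turned to -0.033 after median centring.

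Markers of other cells that a striatal dissection could hold gave little to set beside Gfap. For oligodendrocytes, medium spiny neurons and ependymal or choroid plexus cells, 0 of 12, 0 of 14 and 0 of 10 markers were named, so neither the tissue label nor the share of white matter or ventricle wall could be checked against them here. Of 12 microglial markers only Itgam, an integrin subunit, was named (0.41 between homozygous and wild-type mice), and of 12 vessel markers only Tagln, which in smooth muscle binds actin (1.08, limma adjusted p = 0.0943). Of 10 genes of the subventricular zone 3 were named, Sox11 (0.41 and 0.37), Dlx1 (0.29) and Dcx (0.19 and 0.14), which are expressed in young neurons. None of these passed, and their part in the values of Gfap and Aldoc was not tested.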

How the data were processed

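Each array measured striatal RNA of 1 mouse, per the file headers and the labels. The authors deposited intensities on a linear scale, made with PLIER (named in the submitters' processing notes without a version). The sources used here name neither the array type nor a genome build. Their second deposited table lists rounded intensities, a signed fold change (a score here), a p-value and an adjusted p-value. Of its 4423 probe sets, 3581 carry 1 gene symbol, 49 several and 793 none, and the 40678 others have no name here. Members and lists were chosen with earlier results of these data known.

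Deposited intensities were turned into log2(value + 16) and fitted over all probe sets and 13 arrays with limma 3.58.1 (R 4.3.3), with genotype as the only term and an intensity trend, two-sided, with Benjamini-Hochberg adjustment and a threshold of 0.05. The offset understates changes of dim probe sets, and the number of arrays limits precision. Correlations used 100000 permutations (two-sided). The relations with cortical markers were added after seeing the data. The code was tested on simulated data. Named genes are the members, Ptpn5, the 3 genes of each of 12 lists with the smallest p for homozygous against wild-type mice, any list member past the threshold, and the 5 named genes most correlated with each member. Alternatives were other offsets, quantile normalization, only brighter probe sets, centring on the median, a replicate block, only the groups compared, no trend, array weights, a threshold of 0.10, the authors' list with its headings, and each array left out.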

Additional observations from a re-analysis of the deposited data

How the results depend on the processing

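Of 118 recomputed differences of Gfap and Aldoc, 113 kept their direction and, like the main values, missed the threshold, and 0 passed it (lowest adjusted p = 0.0516, for Aldoc in the list with its headings). With those headings, where homozygous and wild-type labels trade places, Gfap turned to 0.47 for homozygous against wild type, 0.32 for heterozygous against wild type and 0.15 for homozygous against heterozygous, and Aldoc to -0.20 for homozygous against wild type. Array weights turned Gfap to 0.032 for heterozygous against wild type, with by far the highest weight on homozygous 3. Changing only the threshold, the trend, the groups fitted or the probe sets kept returned the main differences exactly. Their direction could not turn in those alternatives. Leaving out 1 array gave Gfap -0.67 to -0.32, -0.28 to -0.028 and -0.51 to -0.17 in the 3 comparisons, and Aldoc 0.058 to 0.29, 0.33 to 0.48 and -0.35 to -0.12. For Gfap with Aldoc r ran from -0.35 to 0.078 and for Gfap with cortical markers from -0.28 to 0.054, positive only without heterozygous 5.

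The number of probe sets past the threshold moved more. For homozygous against wild type (4) it was 2 among brighter probe sets, 18 with only these groups, 8390 with array weights and 3 to 12 with 1 array left out, the most without homozygous 4. For heterozygous against wild type (1) it was 0 among brighter probe sets, 4 with array weights, 2 at a threshold of 0.10, 3 in the list with its headings and 1 to 213, the most without heterozygous 4. For homozygous against heterozygous (3) it was 12 with only these groups, 5698 with array weights, 681 in the list with its headings and 0 to 7, the least without homozygous 4. Counts from the list cover only its 4423 probe sets, which the authors chose for differences in these mice, so they are not array-wide. Of these, 3874 were chosen through heterozygous against wild type, and by the headings the 681 compares wild-type arrays with heterozygous ones. The cause of the other moves was not tested. The replicate block, which drops heterozygous 5, gave 17, 6 and 12 in the same order. Replicate numbers are only labels here: same-numbered arrays had correlations of deviations from -0.45 to 0.19 over 12 pairs, and an array correlated best with its own number in 2 of 24 cases. Each gene has 1 named probe set, so other pairs of probe sets could not be tried. No detection values were used here, so signal over background was not judged.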
